A study of Mus musculus with 2 samples.

Results

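Hox cluster genes encode homeodomain transcription factors, and 33 of the 38 mouse Hox genes sought were represented on the arrays of this study by a probe set that the platform annotation assigns to that gene alone. They were found by symbol in the platform annotation and carried 48 probe sets of 45037 on the array. Cluster A was represented by 9 genes, cluster B by 9, cluster C by 7 and cluster D by 8. Hoxa6, Hoxb8, Hoxc11, Hoxc12 and Hoxd4 had no probe set of their own. Every represented gene is accounted for here, against 18193 genes in all.

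The study measured RNA from lineage-marker-negative thymocytes of C57BL/6J mice, left after bead depletion, on 1 array titled DKO and 1 titled TKO. By the series' design text both genotypes share loss of Cdkn2a and of Ring1A and carry floxed Ring1B, with the DKO animals LckCre(-) and the TKO animals LckCre(+). By the samples' own genotype field, DKO means loss of Ring1A and Ring1B, and TKO means loss of Cdkn2a as well. The Lck promoter is used to drive Cre in T-lineage cells, where deletion of the floxed gene is then intended. The growth field says that the cells were kept in culture, and the labels name neither the age and sex nor the number of animals behind each RNA. Each label had 1 array and no replicate, so no test was possible, and higher or lower describes these 2 arrays only.

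In the mouse the Hox genes lie in 4 clusters, A to D, in which genes of the same paralogue number descend from a common ancestor and low numbers are active anteriorly and high numbers posteriorly. Polycomb repressive complexes keep Hox genes silent outside their domains, and Ring1 (Ring1A) and Rnf2 (Ring1B) are the catalytic subunits of complex 1, whereas MLL-family methyltransferases keep them active. In blood, genes of cluster A with middle paralogue numbers, Hoxa9 above all, are active in stem and progenitor cells and decline with differentiation. Hox proteins bind DNA together with the TALE homeodomain partners of the Pbx, Meis and Pknox families.

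Facts of the arrays as a whole bear on all that follows. Trimmed mean signals were 497 on both arrays, and the median signal of all probe sets was 68.8 under the DKO label and 71.8 under the TKO label. Signals are given below divided by the median of their array, as relative signals, and each pair of values gives DKO-labelled first and TKO-labelled after it. A probe set is called measured where its relative signal is 1 or more, because signals of absent transcripts are not 0 and no detection calls were used. Of the targeted genes, Cdkn2a had relative signals of 9.87 and 0.257, Ring1 had 1.93 and 2.05, and the brightest Rnf2 probe set had 60.3 and 61.1. The first Cdkn2a value goes against the design text. The Rnf2 values go against the genotype field, and the TKO-labelled one also against the design text, and Ring1, lost under both labels by either text, was measured on both arrays. No source used here places these probe sets inside or outside the deleted segments, and the arrays are called by label alone. Xist was at 1.81 and 230.0, and the Y-linked Uty, Kdm5d and Eif2s3y had 5.01 and 0.205, 9.48 and 0.424, and 24.9 and 0.771, so that sex differed together with the label and the 2 cannot be told apart. All 10 double-negative T cell marker genes with a probe set were measured, and all 10 had negative log2 ratios. So had 6895 of the 11280 genes measured on at least 1 array.

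Most Hox genes were below the array median in these thymocytes, whichever label the array carried. Only 6 of the 33 represented Hox genes (18.2%) were measured on at least 1 array, namely Hoxa3, Hoxa4, Hoxa5, Hoxa7, Hoxa9 and Hoxb4, while 27 were below the median on both. Over all genes of the array the measured share was 62%. Cluster A held 5 of the 6 measured genes out of its 9, cluster B held 1 of 9, and clusters C and D held 0 of 7 and 0 of 8. For a gene with several probe sets these counts use the one that is brightest on average in log2 signal, and by single probe sets 9 of 48 were measured. Raising the floor from the median to the 75th percentile left 0 Hox genes measured, and lowering it to the 25th left 21.

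**Figure D1:**
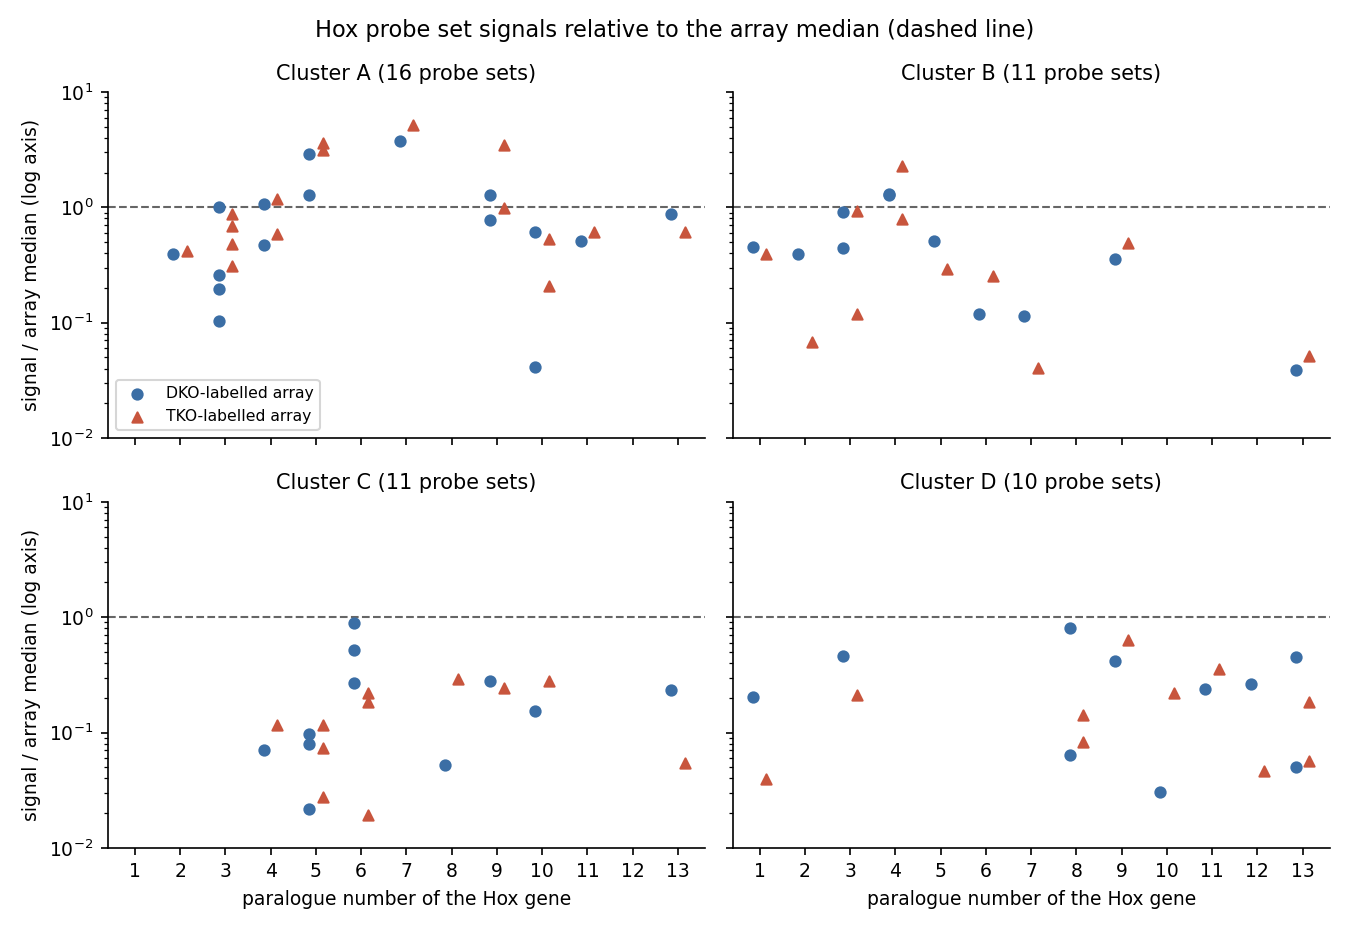
Relative signal (array signal divided by the array median, log axis) of every Hox probe set against the paralogue number of its gene, for clusters A, B, C and D, with circles for the DKO-labelled and triangles for the TKO-labelled array and a dashed line at the median. Points above the line belong to 5 genes of cluster A and 1 of cluster B, and all 11 probe sets of cluster C and all 10 of cluster D lie below it on both arrays.

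By position, the measured genes of cluster A formed an uninterrupted run among the represented genes. Hoxa3, Hoxa4, Hoxa5, Hoxa7 and Hoxa9 follow each other along the cluster apart from Hoxa6, which had no probe set of its own. Hoxa2 on the anterior side and Hoxa10, Hoxa11 and Hoxa13 on the posterior side were below the median on both arrays. The ends of the run were less certain, since Hoxa3 was measured under the DKO label alone, just above the floor, and Hoxa9 on 1 array by each of its probe sets, not the same one. In paralogue groups 4 to 8, 4 of 12 represented genes were measured, against 1 of 7 in groups 1 to 3 and 1 of 14 in groups 9 to 13. Signals of different probe sets do not compare transcript amounts, so these counts rest on the floor and not on an order of levels.

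Of the 6 measured Hox genes, 1 (Hoxa9) passed 2-fold upward under the TKO label, 0 passed it downward, and 5 did neither. Over all 11280 measured genes 3.2% were at least 2-fold higher and 0.674% at least 2-fold lower. Of the Hox genes, 5 had positive log2 ratios (TKO-labelled over DKO-labelled) and 1 negative, with a median of 0.38 beside -0.09 over all measured genes. Among all measured genes 4385 ratios were positive and 6895 negative. A median over so few genes moved with the choice of probe set: it was 0.07 when the probe set brightest on the DKO-labelled array stood for each gene, 0.63 as the mean over probe sets and 0.83 without _x_at and _s_at probe sets.

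Hoxa9 promotes self-renewal of blood progenitors and is a leukaemia oncogene together with Meis1. Its probe set 1455626_at had relative signals of 0.783 and 3.48 (array signals of 53.9 and 249), at least 3.48-fold higher against the floor (log2 ratio 1.80 or more). It was thus below the median on one array and at percentile 68.0 of the other. Its other probe set, 1421579_at, had 1.27 and 0.996, a log2 ratio of -0.34 or less. The probe sets disagreed in direction, so the sign for Hoxa9 depended on which was read, and the mean over both gave 0.90, under 2-fold. The annotation ties 1421579_at to a RefSeq transcript of Hoxa9 and gives no accession for 1455626_at.

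Hoxa7, which neighbours Hoxa9 in the cluster and is active in the same progenitors, was measured on both arrays. Its single probe set had relative signals of 3.79 and 5.13, a log2 ratio of 0.44 (1.36-fold). It was therefore above the median on each array and stood at percentiles 69.1 and 73.0, but was not 2-fold higher.

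Hoxa5, known for its part in lung and axial skeleton development and also expressed in blood progenitors, was measured on both arrays by both of its probe sets. The brighter, 1443803_x_at, had relative signals of 2.89 and 3.63, a log2 ratio of 0.33. The other, 1448926_at, had 1.27 and 3.12, a log2 ratio of 1.30 (2.46-fold). Both were higher on the TKO-labelled array, by unequal amounts. Probe sets of the _x_at type can cross-hybridise, and without such types Hoxa5 counted as at least 2-fold higher, so that 2 Hox genes were. By single probe sets 2 of the 9 measured Hox probe sets were at least 2-fold higher and 0 lower, beside 2.63% and 0.642% of the 20400 measured probe sets with 1 gene.

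Hoxb4, which promotes expansion of blood stem cells when overexpressed, was the only measured gene of cluster B. Its probe set 1460379_at had relative signals of 1.27 and 2.26, a log2 ratio of 0.83 (1.78-fold). Its other probe set, 1451761_at, had 1.30 and 0.797, a log2 ratio of -0.38 or less. As for Hoxa9, the probe sets disagreed in direction. The annotation gives the same accession for both, and the mean over them was 0.06.

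Hoxa4 and Hoxa3 were measured only just. Hoxa4, an anterior patterning gene, had 1.06 and 1.18 with its brighter probe set (log2 ratio 0.16), and a dimmer probe set was under the median on both arrays. Hoxa3, which the thymus primordium needs to form, had 1.01 and 0.871, a log2 ratio of -0.02 or less, while 3 dimmer probe sets stayed under the median. Just outside the limit lay Hoxb3 at 0.910 and 0.937, and Hoxa13 at 0.869 and 0.608.

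**Figure D2:**
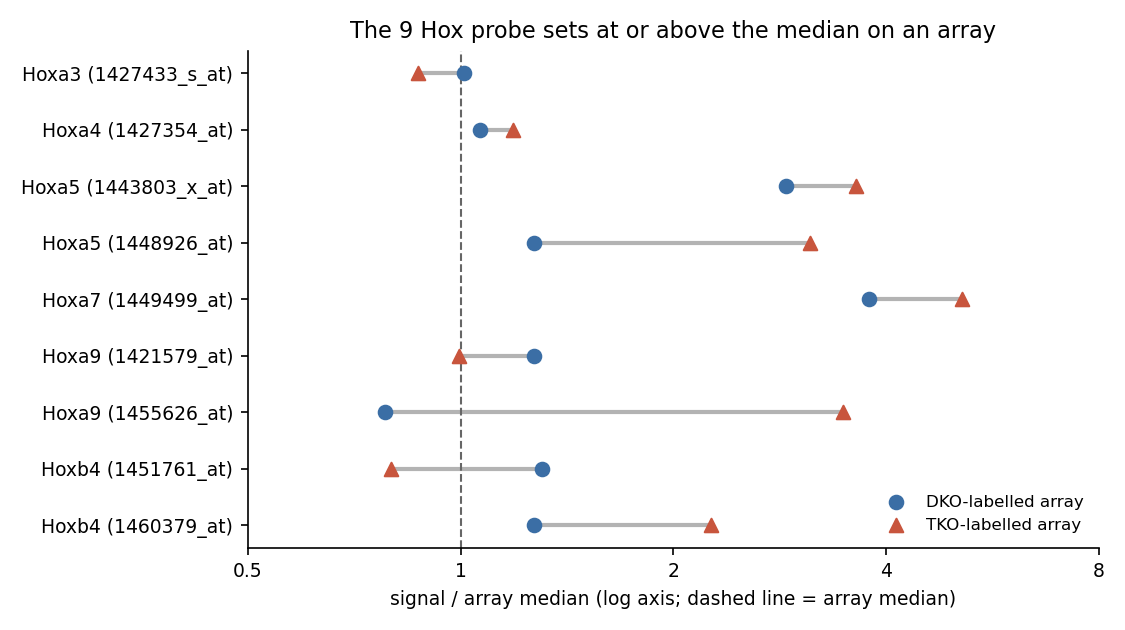
Relative signal (log axis) of the 9 Hox probe sets at or above the median (dashed line) on at least 1 array, with circles for the DKO-labelled and triangles for the TKO-labelled array joined by a grey bar. Both Hoxa5 probe sets move to the right on the TKO-labelled array, while the pairs of Hoxa9 and Hoxb4 move in opposite directions.

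Probe sets of one gene gave a measure of technical disagreement at this brightness. Over 1492 genes with at least 2 probe sets measured on both arrays and a mean relative signal of up to 5, the log2 ratio of a probe set had a robust SD of 0.31 (0.23 over 4794 genes of any signal). This spread comes from the same hybridisations and holds no error between animals, cultures or RNA preparations. It does not apply to Hoxa3, to Hoxa9 or to 1 of the Hoxb4 probe sets, which were not measured on both arrays. Dim genes were also counted more often: among the 3908 measured genes with a mean relative signal of 1 to 5, a range chosen after the values were seen, 5.12% passed 2-fold upward and 1.36% downward.

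**Figure D3:**
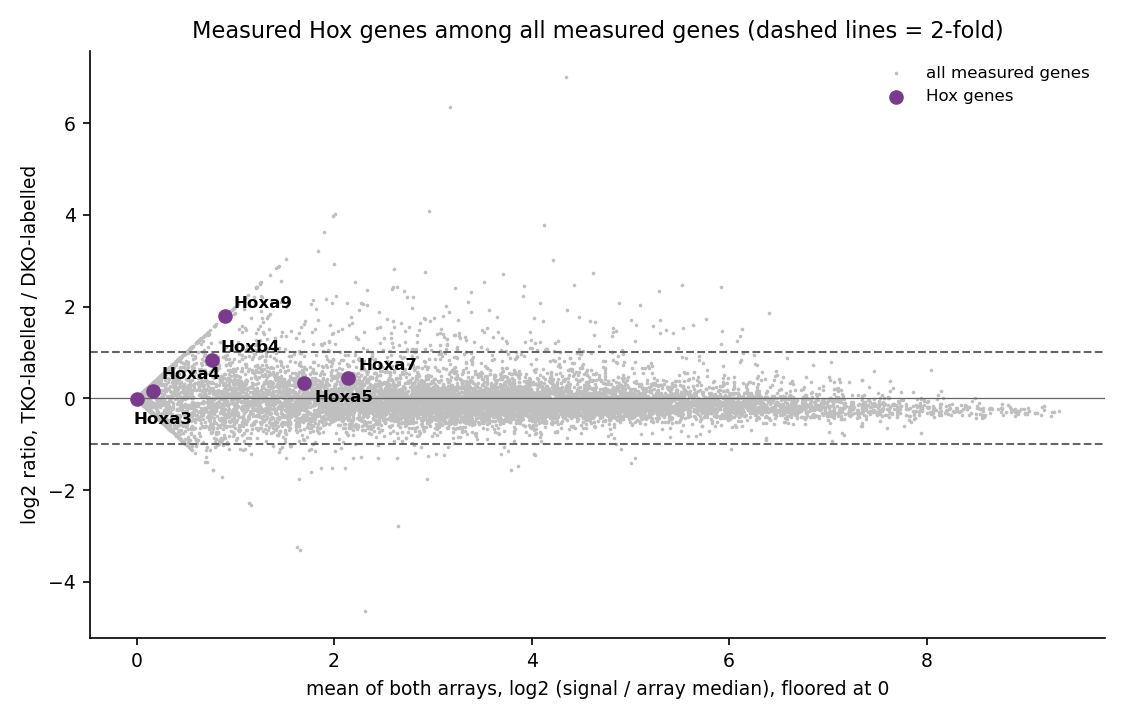
Log2 ratio of TKO-labelled over DKO-labelled signals against the mean log2 relative signal of both arrays, with signals under the median raised to it, for all 11280 measured genes (grey) and the 6 measured Hox genes (purple), and dashed lines at 2-fold. The Hox genes lie in the dim part of the range, and Hoxa9, at 1.80, is the only one beyond the 2-fold line.

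For Hoxa5, Hoxa7, Hoxa9 and Hoxb4, and for Hoxa10, the first gene beyond the run on the posterior side, the 250 bases before the annotated start are shown because Polycomb complexes are known to gather at CpG-rich promoters. They are from RefSeq (GRCm38.p6), read 5′ to 3′ on the strand of the gene, with CpG dinucleotides in capitals. Hoxa5 is at chr6:52204588-52204837 (minus strand), Hoxa7 at chr6:52218574-52218823 (minus), Hoxa9 at chr6:52227371-52227620 (minus), Hoxa10 at chr6:52240855-52241104 (minus) and Hoxb4 at chr11:96318017-96318266 (plus).
Hoxa5: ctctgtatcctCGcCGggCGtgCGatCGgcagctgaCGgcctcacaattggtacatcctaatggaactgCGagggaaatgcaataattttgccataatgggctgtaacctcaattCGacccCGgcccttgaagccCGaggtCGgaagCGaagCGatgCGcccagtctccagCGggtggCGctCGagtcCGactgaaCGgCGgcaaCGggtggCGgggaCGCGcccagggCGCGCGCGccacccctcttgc
Hoxa7: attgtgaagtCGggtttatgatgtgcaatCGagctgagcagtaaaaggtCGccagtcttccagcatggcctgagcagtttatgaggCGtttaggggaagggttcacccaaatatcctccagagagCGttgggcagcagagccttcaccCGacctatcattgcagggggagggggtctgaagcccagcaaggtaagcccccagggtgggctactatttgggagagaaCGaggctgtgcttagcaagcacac
Hoxa9: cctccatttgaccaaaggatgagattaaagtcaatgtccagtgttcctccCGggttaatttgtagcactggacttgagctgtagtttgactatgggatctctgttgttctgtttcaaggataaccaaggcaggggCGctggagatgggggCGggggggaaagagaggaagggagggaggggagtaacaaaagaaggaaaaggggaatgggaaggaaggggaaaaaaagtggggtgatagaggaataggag
Hoxa10: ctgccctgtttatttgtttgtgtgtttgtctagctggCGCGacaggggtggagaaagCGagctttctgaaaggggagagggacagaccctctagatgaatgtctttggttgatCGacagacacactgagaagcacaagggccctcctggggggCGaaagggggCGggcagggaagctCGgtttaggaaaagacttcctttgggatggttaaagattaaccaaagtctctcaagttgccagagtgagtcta
Hoxb4: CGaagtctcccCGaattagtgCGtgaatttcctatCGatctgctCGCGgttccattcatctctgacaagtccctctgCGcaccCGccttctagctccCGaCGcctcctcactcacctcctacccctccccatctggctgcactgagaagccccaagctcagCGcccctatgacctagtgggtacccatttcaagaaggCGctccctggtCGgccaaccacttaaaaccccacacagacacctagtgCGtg

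The windows differed widely in CpG content. Hoxa5 had 28 CpG dinucleotides, Hoxb4 14, Hoxa7 7, Hoxa10 7 at the start shown and 20 at its other annotated start, and Hoxa9 3, where the median over all 32851 windows of that length in the table was 6. The RefSeq table held 24 windows of 22 Hox genes, with a median of 12.5. The 5 windows of measured genes (Hoxa3, Hoxa5, Hoxa7, Hoxa9 and Hoxb4) had between 3 and 28, with a median of 14, and the 16 windows of genes below the median on both arrays had between 2 and 35, with a median of 12.5. The former range lay inside the latter, as the range of so few windows easily can. The measured Hoxa4 had no window, and whether CpG content differs between measured and unmeasured Hox genes was not tested. Of motifs searched on both strands, TATAAA was in 0 of the 5 and 2 of the 16 windows (12.4% of all windows), CCAAT in 1 and 10 (33.8%), and TGATTNAT, a joint Hox and Pbx site, in 0 and 2 (2.82%).

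The remaining cluster A genes were below the median on both arrays. Hoxa2, which patterns the hindbrain and branchial arches, had relative signals of 0.394 and 0.415. Hoxa10, also active in blood progenitors and in the uterus, had 0.610 and 0.526 with its brighter probe set and 0.0414 and 0.208 with the other. Hoxa11, a limb and uterus patterning gene, had 0.510 and 0.610, and Hoxa13, a digit and urogenital patterning gene, was given above. Below the floor signals have no order and no ratio is given.

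In cluster B the genes apart from Hoxb4 were below the median on both arrays. They were Hoxb1, a hindbrain gene (0.452 and 0.395), Hoxb2 (0.393 and 0.0674), Hoxb3, Hoxb5 (0.514 and 0.291), Hoxb6 (0.118 and 0.256), Hoxb7 (0.115 and 0.0407), Hoxb9 (0.358 and 0.491) and Hoxb13, a prostate and tail gene (0.0388 and 0.0515), as relative signals.

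Clusters C and D showed no measured member under either label. In cluster C, relative signals of the 11 probe sets of Hoxc4, Hoxc5, Hoxc6, Hoxc8, Hoxc9, Hoxc10 and Hoxc13 ran from 0.0216 to 0.897 on the DKO-labelled array and from 0.0194 to 0.289 on the TKO-labelled array. Among them 1427454_at, 1 of 3 Hoxc6 probe sets, had 0.897 and 0.0194. Hoxc13, a hair follicle gene, had 0.234 and 0.0548. In cluster D, relative signals of the 10 probe sets of Hoxd1, Hoxd3, Hoxd8, Hoxd9, Hoxd10, Hoxd11, Hoxd12 and Hoxd13 ran from 0.0305 to 0.800 on the DKO-labelled array and from 0.0396 to 0.640 on the TKO-labelled array. Hoxd8 had 0.800 and 0.141 with one probe set and 0.0636 and 0.0826 with the other, and Hoxd9 had 0.416 and 0.640. Hoxd13, which patterns digits, had 0.449 and 0.185 with its brighter probe set. With the floor at the 25th percentile, Hoxd8 was at least 2.70-fold lower under the TKO label (log2 ratio -1.43) by the former probe set, the 1 of 21 measured Hox genes past 2-fold downward there, beside 3.28% of the 15873 genes measured at that floor. Hoxa9 was the 1 past 2-fold upward there, beside 5.33% of those genes. At the same floor 11 of the 21 ratios were positive and 10 negative.

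Of 8 TALE partner genes with a probe set 5 were measured, where 62% of all genes were. None of the 5 was past 2-fold, beside 3.2% higher and 0.674% lower over all measured genes, and their median log2 ratio was 0.12. Pknox1 had relative signals of 24.6 and 20.1 (log2 ratio -0.29), Pbx3 12.1 and 12.1 (0.00), Pbx2 11.1 and 12.1 (0.12) and Pbx4 1.86 and 2.26 (0.29). Meis3 was measured on the TKO-labelled array alone, at 0.320 and 1.86 (0.90 or more). Meis1, the partner of Hoxa9 in leukaemia, was below the median on both arrays with all 3 of its probe sets, the brightest at 0.935 and 0.630.

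Genes that keep Hox chromatin active or silent and had a probe set were all measured. By the brightest probe set of each gene none was past 2-fold. The 12 MLL and trithorax-type regulators had a median log2 ratio of -0.23, with 10 negative and 2 positive. Over all 11280 measured genes the median was -0.09, with 6895 negative and 4385 positive. Psip1, which encodes a chromatin tether of MLL complexes, had relative signals of 90.4 and 66.9 (-0.43), and the core subunit gene Ash2l 25.7 and 21.1 (-0.28). Kmt2a, which encodes the MLL methyltransferase, had 17.6 and 14.6 (-0.27), Men1, its cofactor menin, 14.1 and 11.5 (-0.30), and Dot1l 8.47 and 8.28 (-0.03). Kdm6a, a histone demethylase gene on the X chromosome, had 14.2 and 26.3 (0.89), beside the Xist difference given above. The 27 Polycomb subunit genes with a probe set had a median of -0.16, with 22 negative and 5 positive, and 0 of them past 2-fold. The values of largest size were those of Cbx8 (2.15 and 4.06, log2 ratio 0.92), Phc3 (17.1 and 12.8, log2 ratio -0.41), Bmi1 (69.6 and 92.2, log2 ratio 0.41) and Pcgf6 (25.2 and 19.2, log2 ratio -0.40).

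Genes beside the clusters were called about as often as all genes. Of the 5 nearest protein-coding genes on each side of each cluster, 38 had a probe set and 30 were measured (78.9%, beside 62% of all genes). Of the measured ones 1 was at least 2-fold higher (3.2% of all measured genes were) and 0 lower, and their median log2 ratio was -0.15. The higher one was Jazf1 near cluster A (1.27 and 2.76, log2 ratio 1.12). Skap2, next to the anterior end of cluster A, had 10.9 and 15.4 (0.50), and Evx1, the homeobox gene at its posterior end, was below the median on both arrays, as was Evx2 beside cluster D. All 10 neighbours of cluster C were measured, among them Nfe2 (4.86 and 2.50, log2 ratio -0.96) and Cbx5 (68.5 and 47.2, log2 ratio -0.54), while all 7 represented genes inside the cluster were below the median.

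Other developmental regulators were also mostly unmeasured. All 6 ParaHox genes, relatives of the Hox genes that include Cdx2 and Pdx1, were below the median on both arrays. Of 73 non-Hox homeobox and other developmental factor genes 11 were measured (15.1%), 2 were at least 2-fold higher and 0 lower, beside 3.2% and 0.674% of all measured genes. These 2 were Pou3f3, a neural factor gene measured under the TKO label alone (0.0852 and 15.7, log2 ratio 3.97 or more), whose other probe set was below the median on both arrays, and Lhx2, a LIM homeodomain gene (4.40 and 14.8, log2 ratio 1.75).

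**Figure D4:**
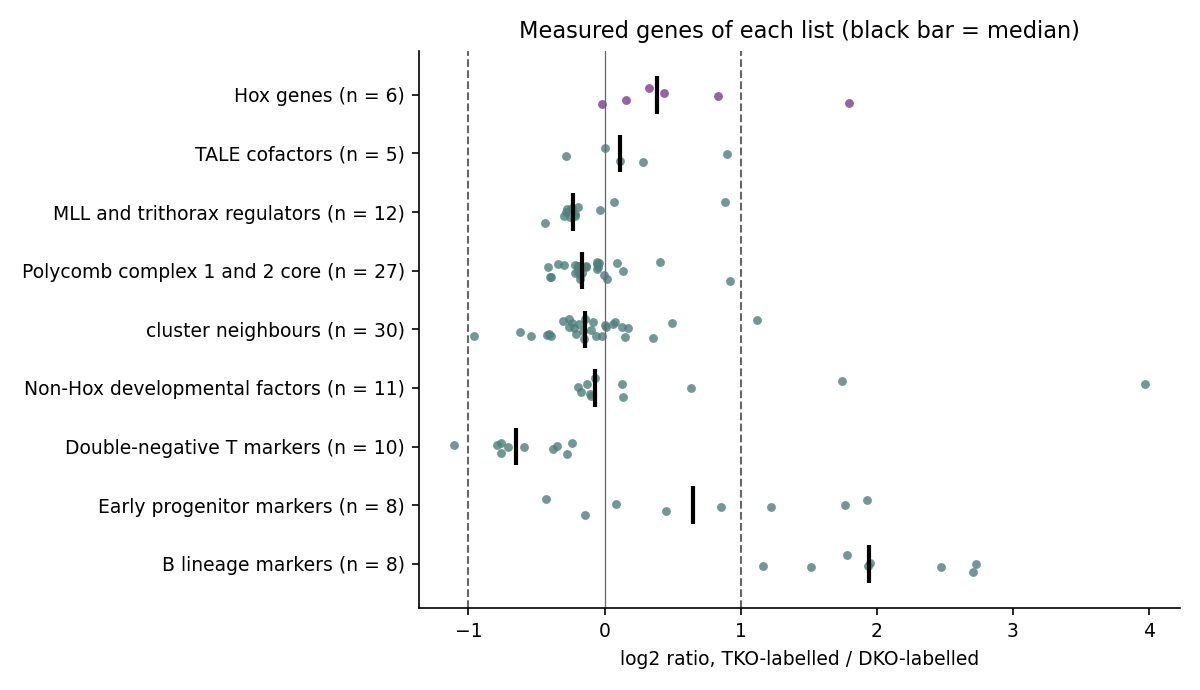
Log2 ratio of TKO-labelled over DKO-labelled signals for the measured genes of each list, 1 point per gene, spread vertically at random, with a black bar at the median and dashed lines at 2-fold. The 6 Hox genes have a median of 0.38, and the double-negative T and B lineage markers have medians of -0.65 and 1.94.

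Markers of several cell types also differed between the arrays. For the counts that follow, 3.2% of all measured genes were at least 2-fold higher and 0.674% at least 2-fold lower. All 8 B lineage markers with a probe set passed 2-fold upward under the TKO label (median log2 ratio 1.94), and their summed relative signal was 93.0 and 361. Of the early progenitor markers, 8 of 11 were measured, and 3 (Mef2c, Lmo2 and Hhex) were at least 2-fold higher and 0 lower. Of the 8 log2 ratios, 6 were positive and 2 negative. The negative ones were those of Kit (9.57 and 8.66, log2 ratio -0.14) and Cd34 (1.35 and 0.587, log2 ratio -0.43 or less). The summed relative signal of the list was 70.3 and 121, and Flt3, Meis1 and Tal1 were below the median on both arrays. The double-negative T markers had a summed relative signal of 1565 and 1023, and Il2ra, an early T cell marker, was the 1 of 10 at least 2-fold lower (log2 ratio -1.11). Of the myeloid markers, 8 of 10 were measured with 2 higher and 2 lower, and the summed relative signal was 59.6 and 64.1. The part of these differences in the Hox values was not tested, and in bulk RNA fewer cells of a type and less RNA per cell cannot be told apart.

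Stromal markers were mostly below the median. Of the mesenchymal markers 3 of 8 were measured, with Col1a1, Col1a2, Lum, Pdgfra and Postn below the median on both arrays and a summed relative signal of 55.5 and 25.2. Most of that sum was Pdgfrb (52.4 and 19.8). Of the thymic epithelial markers 4 of 9 were measured, with Foxn1, Psmb11, Dll4, Krt14 and Cldn3 below the median and a summed relative signal of 18.9 and 16.6. Those measured were Epcam (11.9 and 9.59), Ccl25 (2.50 and 1.80), Krt8 (1.45 and 1.87) and Krt5 (1.25 and 1.49). Only 1 of 6 endothelial markers (Pecam1) and 1 of 4 erythroid markers (Epor) were measured, with summed relative signals of 5.66 and 6.28, and of 2.22 and 1.98.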

How the data were processed

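Array intensity values, 1 per probe set on a linear scale, were used as the authors deposited them; per the submitters' processing notes they were made with MAS5, which scales each array as a whole. Of 45037 probe sets, 34945 carried 1 gene, 932 several and 9160 were not listed in the platform annotation. Symbols of other genes were updated by Entrez ID through a RefSeq table of GRCm38.p6 (99.4% matched). Signals were divided by the array median, values under 1 were raised to 1, and log2 ratios were TKO-labelled minus DKO-labelled. A gene with several probe sets took the brightest by mean log2 signal. A gene measured on 1 array alone has a bound. With 1 array per label a size rule of 2-fold replaced a test, and the number of arrays limits the precision. The procedure was tested on simulated data, with changes planted only in genes brighter than any Hox gene here. That test therefore does not cover changes in dim genes. Python 3.11.15, numpy 2.4.6, pandas 2.3.3, scipy 1.17.1, statsmodels 0.14.6 and matplotlib 3.10.9 were used. Named genes were all Hox members, the targeted and sex-linked genes, from every other list the 4 members of largest log2 ratio in size, not all of which are printed, and cluster neighbours past 2-fold; any other gene named, such as Kmt2a, Dot1l, Pbx3 or Skap2, was chosen after its values were seen. The Hox members and the gene lists were chosen with earlier results of these data known. Alternatives covered scaling, floor, probe set choice and probe set type.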

Additional observations from a re-analysis of the deposited data

How the results depend on the processing

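The count of Hox genes at least 2-fold higher (1) was the same under quantile normalization, the deposited scaling, lowess detrending (span 0.3), centring of the median log2 ratio on 0 and the 25th-percentile floor. It was 0 with the 75th-percentile floor, the mean over probe sets and the probe set brightest on the DKO-labelled array, and 2 without _x_at and _s_at probe sets. The count lower (0) was 1 with the 25th-percentile floor. That floor gave 21 measured Hox genes and 30 probe sets in place of 6 and 9, with 9, 6, 1 and 5 genes in clusters A, B, C and D and a median log2 ratio of 0.043. The 75th-percentile floor gave 0 genes, 0 probe sets, 0 in clusters A and B, and no median. Cluster A held 3 measured genes as means over probe sets, and cluster B held 2 with the median log2 ratio set to 0. The median log2 ratio of Hox genes was 0.63 as means over probe sets, 0.070 with the probe set brightest on the DKO-labelled array and 0.83 without _x_at and _s_at probe sets; that of cluster A was 0.81 and 0.87 in the first and last of these. Hoxa9 was at -0.34 with the probe set brightest on the DKO-labelled array, where the other probe set represents it. Over all genes, 361 higher and 76 lower became 846 and 521 with the 25th-percentile floor and 129 and 17 with the 75th. A lower floor admits more probe sets by construction. No paired analysis was possible because each label has 1 array, and leaving out an array leaves no comparison.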

Other observations

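Probe sets shared by neighbouring Hox genes, which belong to no single gene, were below the array median under both labels. The probe set shared by Hoxb8 and Hoxb7 had relative signals of 0.642 and 0.466 (DKO-labelled first). The 2 shared by Hoxd4 and Hoxd3 had 0.671 and 0.158, and 0.0419 and 0.0294. The non-coding RNA genes of the clusters with a probe set were below it as well: Hoxa11os had 0.124 and 0.496 with its brighter probe set, Hoxb5os 0.775 and 0.105, and Hoxd3os1 0.360 and 0.485.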
